A study of Mus musculus with 5 samples.

Results

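Secreted plasma proteins of the liver were followed here at the RNA level, as 58 listed genes for carriers and acute phase proteins (22 genes), complement (15) and coagulation with fibrinolysis (21). Members were matched by gene symbol to the array's annotation; the rule uses no measured value, but the list was drawn up with earlier results of these data known. A probe was found for 43 of the 58, out of 9930 named genes on the array: 18 carriers and acute phase genes, 9 of complement and 16 of coagulation. The other 15, which include C3, Plg, Cfd, Ahsg and Gc, had no probe by symbol, so their expression was not analysed here. A gene was tested when it had values on at least 4 arrays and with the mutant RNA in either dye, which left 35 members (15, 7 and 13) of 6706 genes tested.

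The livers came from 5 male mice of the strain Pitx3eyl-/-, homozygous for the eyeless mutation of the homeodomain factor gene Pitx3, at an age of 17 weeks. Each array compared the RNA of 1 mutant animal with RNA pooled from wild-type mice. The pool held 4 mice per the sample labels and 6 per the labelling protocol; neither its strain, age and sex nor the mutant's background strain was given in the labels used here. The mutant RNA carried Cy5 on replicates 1, 2 and 4 and Cy3 on the dye swaps, replicates 3 and 5. Every value is a log2 ratio, in which 1 stands for a 2-fold difference and a positive value is read as higher in the mutant. That direction is likely but not known, because the files do not state it. In tissue RNA, fewer cells of a type and less RNA per cell cannot be told apart.

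Hepatocytes make and secrete most proteins of blood plasma. Carriers such as albumin and transferrin move hormones, vitamins and metals, and acute phase proteins change in blood during inflammation, largely through interleukin 6 and STAT3. Complement marks and lyses microbes through the classical, lectin and alternative routes, while coagulation proteases act in sequence to turn fibrinogen into fibrin, with serpins as their inhibitors. Genes for these proteins share liver transcription factors, among them HNF1 and C/EBP.

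The 3 fibrinogen chains form 1 protein, lie close together on chromosome 3 and were each highest on replicate 1. As deposited, that array was the highest for 18 of 30 members measured on all 5 arrays, against 22.3% of all genes. For these reasons the proximal promoters of the 3 chains are printed, beside that of albumin, the most familiar hepatocyte product. Each is 300 bases, from 250 before to 50 after the annotated start, from RefSeq on GRCm38.p6: Alb at chr5:90460620-90460919 (plus strand), Fga at chr3:83025903-83026202 (plus strand), Fgb at chr3:83049814-83050113 (minus strand) and Fgg at chr3:83007474-83007773 (plus strand). Capitals mark the HNF1 half-site GTTAAT or its reverse complement ATTAAC.
Alb: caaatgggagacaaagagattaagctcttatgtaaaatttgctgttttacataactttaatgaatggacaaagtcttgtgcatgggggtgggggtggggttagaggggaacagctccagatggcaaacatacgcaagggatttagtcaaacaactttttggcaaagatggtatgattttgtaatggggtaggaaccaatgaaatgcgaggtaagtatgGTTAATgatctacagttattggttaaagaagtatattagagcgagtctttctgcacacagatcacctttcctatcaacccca
Fga: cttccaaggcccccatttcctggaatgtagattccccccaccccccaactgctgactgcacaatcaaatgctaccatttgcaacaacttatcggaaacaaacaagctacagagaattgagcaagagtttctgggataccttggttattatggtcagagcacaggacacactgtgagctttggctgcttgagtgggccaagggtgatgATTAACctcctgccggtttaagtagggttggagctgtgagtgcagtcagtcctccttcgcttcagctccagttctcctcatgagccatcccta
Fgb: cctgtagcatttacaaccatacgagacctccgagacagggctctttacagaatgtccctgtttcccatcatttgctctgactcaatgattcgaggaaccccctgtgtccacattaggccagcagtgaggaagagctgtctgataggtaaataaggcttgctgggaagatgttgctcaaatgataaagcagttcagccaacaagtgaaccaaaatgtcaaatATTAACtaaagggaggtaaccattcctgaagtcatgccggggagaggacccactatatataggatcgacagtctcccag
Fgg: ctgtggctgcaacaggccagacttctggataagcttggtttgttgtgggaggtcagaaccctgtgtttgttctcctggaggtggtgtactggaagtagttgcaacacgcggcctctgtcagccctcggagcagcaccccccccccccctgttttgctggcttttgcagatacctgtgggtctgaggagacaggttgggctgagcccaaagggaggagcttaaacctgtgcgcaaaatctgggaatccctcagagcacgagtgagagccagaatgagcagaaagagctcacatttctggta
The half-site occurs in the windows of Alb, Fga and Fgb, and these letters are not in that of Fgg. Members without a probe, such as C3, Ahsg and Gc, were included in the promoter counts. Promoter windows were found for 44 of the 58 members, 48 windows in all. The half-site was present in 13 of these (27.1%), against 7.1% of all 32851 windows of the same length. The C/EBP motif TTGCNNAA, on either strand, was present in 17 member windows (35.4%), against 10.8% of all windows. The TATA motif TATAAA was in 8 (16.7%, against 13.6%). The GC box CCGCCC was in 6 (12.5%, against 35.7%). All motifs were counted on both strands, matches of different motifs may overlap, and the motifs and printed genes were chosen after expression values were seen. A match describes sequence only.

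No plasma protein gene passed the test for a difference between mutant livers and pool. limma, fitted on all 6706 genes with a term for dye orientation, called 0 of the 35 tested members, and 0% of all genes, at an adjusted p under 0.05. The adjusted p was 0.998 for each member. At an unadjusted p under 0.05 limma had 1 member, Cp, or 1 of 35, where the background over all genes was 3.94%. Fitted on single probes, limma called 0 of the 37 member probes tested and 0% of all probes. Of the 35 members, 14 had a fitted ratio above 0 and 21 below 0, against 46.3% of all genes below 0. Their median fitted ratio was -0.06, against 0.03 over all genes. The fitted ratio is the mean of the averages over Cy5 and Cy3 arrays. It exceeded 1 in size for 1 member, Cp, against 10.4% of all genes, and the median size was 0.21 for members and 0.30 for all genes.

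**Figure D1:**
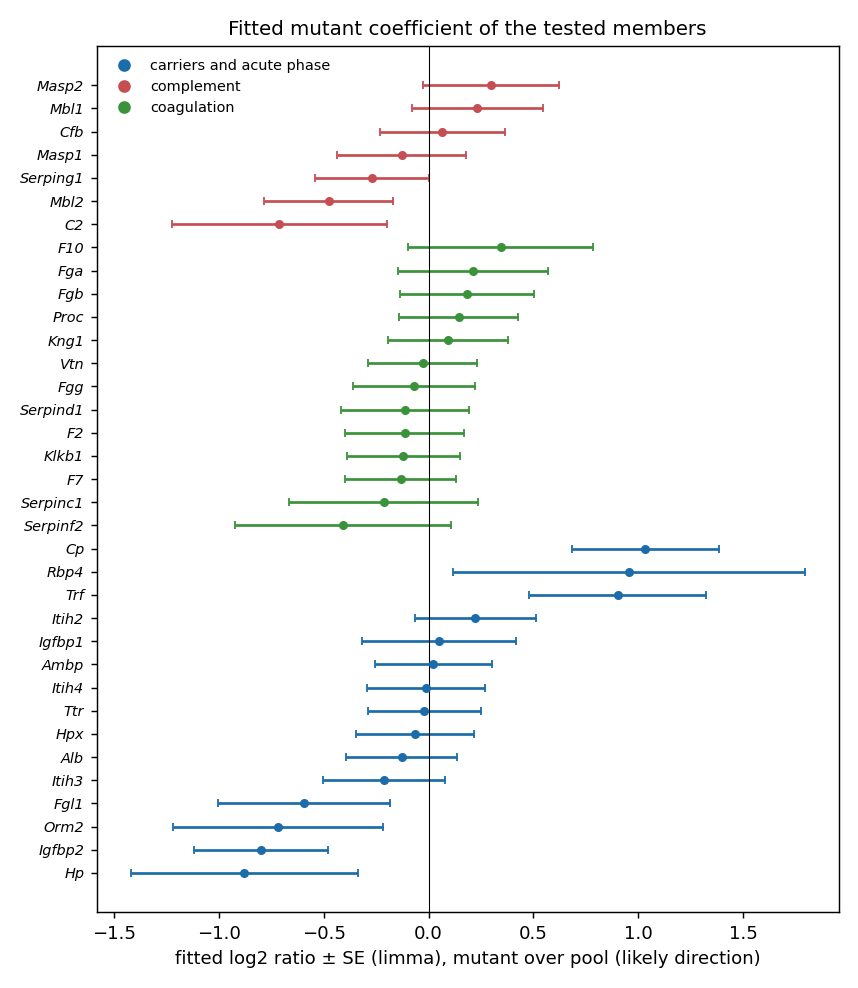
Fitted log2 ratio of mutant over pool (x axis, likely direction) with its SE for the 35 tested members (y axis), coloured by class. Carriers and acute phase genes reach from -0.88 for Hp to 1.03 for Cp, and the 13 coagulation genes lie between -0.41 and 0.34.

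The carriers and acute phase genes had the widest span of fitted ratios. Of 15 tested, 6 lay above and 9 below 0, with a median of -0.02. Albumin, the most abundant plasma protein, had log2 ratios of -0.19, -0.34, -0.14, 0.08 and -0.08 on replicates 1 to 5, and a fitted ratio of -0.13 ± 0.27 (SE, 5 arrays). These values nearly equal a constant of each array, its most frequent value, which the values show to be the ratio of equal channel signals before scaling. Alb lay within 0.003 of that constant on replicates 1, 2, 3 and 5, and 0.381 below it on replicate 4. Of all 20355 probes, 3 lay within 0.0035 of the constant on at least 4 arrays: Alb and 2 unnamed probes, which were also within 0.006 of it on replicate 4. On those 4 arrays the ratio of Alb nearly equals the constant, so neither it nor its SD of 0.14 (array medians subtracted) is read here as a level or a steadiness of albumin RNA.

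Transthyretin, the thyroxine and retinol carrier, had a fitted ratio close to 0. Its 2 probes averaged 0.23, 0.26, -0.43, 0.02 and 0.01 on replicates 1 to 5 (fitted ratio -0.02 ± 0.27). The probes themselves parted on replicate 5, at 0.52 and -0.50, and on replicate 2, at -0.24 and 0.77. Ambp, the precursor of alpha-1-microglobulin and bikunin, had a fitted ratio of 0.02 ± 0.28. Itih2 and Itih4, heavy chains of the inter-alpha-trypsin inhibitors, had 0.22 ± 0.29 and -0.01 ± 0.28. The heme carrier gene Hpx had -0.06 ± 0.28, from -0.57 on replicate 5 to 0.63 on replicate 1. For these genes the arrays fell on either side of 0, and each fitted ratio was smaller than its SE.

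The metal carriers ceruloplasmin and transferrin had higher fitted ratios. For Cp, a copper-carrying ferroxidase, the log2 ratios were -0.02, 0.35, 2.81, -0.09 and 1.16 on replicates 1 to 5. Its high arrays were replicates 3 and 5, where the mutant RNA carried Cy3. The fitted ratio was 1.03 ± 0.35, with a limma unadjusted p of 0.0289 and an adjusted p of 0.998; the average was 0.08 over the Cy5 arrays and 1.98 over the Cy3 arrays. Its dye coefficient, positive where a ratio is higher with the mutant in Cy5, was -0.95 (limma unadjusted p 0.0388). The unadjusted p for Cp was 0.191 without replicate 3, with a fitted ratio of 0.62. It was also above 0.05 without replicate 1 (0.0621), replicate 2 (0.0839) or replicate 4 (0.0559). The 1 other probe of Cp had values on 2 arrays, 0.84 on replicate 2 and 1.0 on replicate 5.

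Transferrin, the iron carrier, was above 0 on all 4 arrays that measured it, at 0.17, 1.38, 1.58 and 0.47 on replicates 1, 3, 4 and 5. The fitted ratio was 0.90 ± 0.42 (limma adjusted p 0.998). Its 2 probes disagreed: 1 had -0.39, 2.18, 1.58 and 1.14 on these arrays, and the other had 0.73, 0.59 and -0.20 on replicates 1, 3 and 5. Rbp4, the retinol carrier, had a fitted ratio of 0.95 ± 0.84 that rested on 1 array: replicate 4 had 4.83, and replicates 1, 3 and 5 had 0.22, -0.85 and -0.39. Without replicate 4 its fitted ratio was -0.20, and without replicate 1 it was 2.11.

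At the other end stood the insulin-like growth factor binding protein gene Igfbp2, haptoglobin and orosomucoid. Igfbp2 was below 0 on all 5 arrays, at -0.48, -1.38, -1.26, -0.37 and -0.45 on replicates 1 to 5. The fitted ratio was -0.80 ± 0.32, with a limma unadjusted p of 0.0510 and an adjusted p of 0.998. The average was -0.74 over the Cy5 arrays and -0.85 over the Cy3 arrays, and its dye coefficient was 0.06. After subtraction of array medians the unadjusted p from limma was 0.0453. The limma unadjusted p was 0.0760 without replicate 1, 0.146 without replicate 2 and 0.0644 without replicate 4. Without replicate 3 the fitted ratio of Igfbp2 was -0.60, and without replicate 5 it was -1.0. Igfbp1, a related gene, lay on either side of 0, from -1.0 on replicate 4 to 0.80 on replicate 1 (0.05 ± 0.37).

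Haptoglobin, the hemoglobin carrier and an acute phase protein, was below 0 on the 4 arrays that measured it, at -0.24, -0.56, -0.05 and -2.67 on replicates 1, 2, 3 and 5 (-0.88 ± 0.54). Without replicate 5 its fitted ratio was -0.22, and without replicate 3 it was -1.53 (limma unadjusted p 0.0388, adjusted p 0.999). Orm2, an alpha-1-acid glycoprotein gene, had -0.34, -2.74, -0.16, 0.10 and -0.72 on replicates 1 to 5 (-0.72 ± 0.50), and its fitted ratio was -0.28 without replicate 2. On replicate 3, the only array that measured its 2 probes together, they stood at 1.82 and -2.15. With the better measured probe alone, the fitted ratio of Orm2 was -1.38 (limma unadjusted p 0.0882, adjusted p 0.998). Fgl1, a secreted relative of fibrinogen, had -2.02 on replicate 1 and -0.52 to 0.12 on the others (-0.59 ± 0.41, and -0.26 without replicate 1). Itih3 had -0.21 ± 0.29, with 0.33 on replicate 1 and -0.50 to -0.02 on the others. A further 3 members of the class were measured on too few arrays for a test. Of these, Orm1 ranged from -1.79 to 0.34 on 3 arrays, Itih1 from -1.22 to 1.79 on 3 arrays and the lipopolysaccharide binding protein gene Lbp from -3.83 to 1.28 on 2 arrays.

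Among complement genes 7 were tested, 3 above and 4 below 0, with a median fitted ratio of -0.13. The lectin route was covered best. Mbl2, a mannose-binding lectin, was below 0 on all 5 arrays, at -0.88, -0.05, -0.02, -0.55 and -0.90 on replicates 1 to 5 (-0.48 ± 0.31). The other lectin gene, Mbl1, had 1.04, 0.22, -0.21, -0.06 and 0.35 (0.23 ± 0.31). The lectins differed most on replicates 1 and 5. Masp1, a protease bound to these lectins, had -0.10, 0.42, 0.09, -0.72 and -0.33 (-0.13 ± 0.31).

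Masp2, the lectin-bound protease that cleaves C4 and C2, had 0.32, 1.5, -0.42, 1.53 and -0.63 on replicates 1 to 5. The fitted ratio was 0.30 ± 0.32, the dye coefficient was 0.82 and its limma unadjusted p was 0.0481. With Cp this made 2 of 35 members with such a p for dye orientation, against 7.1% of all genes. The value on replicate 2 averages -0.51 and 3.51 from 2 probes. The first probe alone had 0.32, -0.51 and 1.53 on replicates 1, 2 and 4, with the mutant in Cy5. On replicates 3 and 5, with the mutant in Cy3, it had -0.42 and -0.63. With this better measured probe alone, the fitted ratio of Masp2 was -0.04. The second probe also held 1 code, and with codes kept the fitted ratio of Masp2 was 1.59.

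C2, the protease that forms the classical and lectin C3 convertase, spread widely, with 0.73, 0.55, -2.68, -1.14 and -0.25 on replicates 1 to 5 (-0.71 ± 0.51). Its fitted ratio was -0.10 without replicate 3, -0.41 without replicate 4 and -1.32 without replicate 5. Its counterpart in the alternative route, Cfb, averaged -0.01, 0.27, 0.18, 0.74 and -0.59 over 2 probes (0.07 ± 0.30). These probes had opposite signs on replicate 1, at 0.69 and -0.70, and on replicate 4, at -0.47 and 1.96. Serping1, the inhibitor of C1 and of the contact system, was below 0 on all 5 arrays, at -0.02, -0.32, -0.34, -0.61 and -0.11 (-0.27 ± 0.27). Serping1 thus had 1 sign but a fitted ratio no larger than its SE.

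With Igfbp2 and Mbl2, Serping1 made 3 of 30 members below 0 on all 5 arrays, against 2.13% of genes measured on all 5. These are ratios as deposited. After subtraction of array medians Serping1 had 0.17 on replicate 1, while Igfbp2 and Mbl2 stayed below 0 on all 5 arrays. No member was above 0 on all 5, and 5.65% of all genes had 1 sign in either direction. The limma adjusted p was 0.998 for each of these 3 members. The complement factor I gene, Cfi, which codes for the protease that inactivates C3b, was measured on 3 arrays, with values from -2.76 to 1.40. C8g, a chain of the lytic complex, was also measured on 3 arrays, at 0.02 to 3.50.

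Of 13 coagulation genes tested, 5 lay above and 8 below 0, with a median fitted ratio of -0.07. The median size of their fitted ratio was 0.13, against 0.22 for carriers and 0.27 for complement; these differences were not tested. Prothrombin, F2, had 0.36, 0.00, -0.27, -0.49 and -0.10 on replicates 1 to 5 (-0.11 ± 0.29). F7, which starts the extrinsic route with tissue factor, had 0.10, -0.29, -0.11, -0.17 and -0.18 (-0.13 ± 0.26). Vtn, the adhesion protein vitronectin, had 0.14, 0.01, -0.16, 0.08 and -0.10 (-0.03 ± 0.26). F7 and Vtn had the smallest SDs between arrays of the class, 0.27 and 0.24.

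The fibrinogen chains, whose promoters are printed above, were each highest on replicate 1. As deposited, 9 of 11 coagulation genes measured on all 5 arrays, Fgb and Fgg among them, were highest there, against 22.3% of all genes. Fga, not measured on replicate 2, had 0.76, -0.53, 0.24 and 0.38 on replicates 1, 3, 4 and 5 (0.21 ± 0.36). Fgb had 0.83, -0.28, 0.12, -0.32 and 0.46 on replicates 1 to 5 (0.18 ± 0.32). For Fgg the values were 0.38, -0.21, -0.18, -0.52 and 0.14 (-0.07 ± 0.29). Above 0 on replicates 1 and 5 were all 3 chains. On replicate 4 Fga lay above 0 and the other chains below.

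The contact system was represented by kininogen and prekallikrein. Kng1, the kininogen gene, had 0.64, 0.32, -0.07, -0.23 and -0.04 on replicates 1 to 5 (0.09 ± 0.29). Klkb1, plasma prekallikrein, had 0.43, 0.16, -0.36, -0.10 and -0.45 (-0.12 ± 0.27). The anticoagulant protease gene Proc had 0.79, 0.29, 0.03, -0.02 and -0.16 (0.14 ± 0.28). Kng1, Klkb1 and Proc were highest on replicate 1 and next highest on replicate 2.

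The serpin inhibitors of the cascade were antithrombin (Serpinc1) at -0.21 ± 0.45, heparin cofactor II (Serpind1) at -0.11 ± 0.31 and the plasmin inhibitor (Serpinf2) at -0.41 ± 0.51. Serpinc1 had 0.55, -0.75, -0.54 and -0.18 on replicates 1, 2, 4 and 5, on either side of 0. Serpinf2 had -3.0, -0.47, 0.64, -0.09 and 0.09 on replicates 1 to 5. Without replicate 1 its fitted ratio was 0.05. Factor X, F10, had 0.19, 2.13, -0.03, -0.34 and 0.08 (0.34 ± 0.44). Replicate 1 stood apart for Serpinf2 and replicate 2 for F10, whose fitted ratio was -0.02 without it. The genes not tested were F5, with -0.41 on 1 array, F12, with -2.14 and -0.08 on 2 arrays, and the protein S gene Pros1, with -0.62 to 1.36 on 3 arrays.

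**Figure D2:**
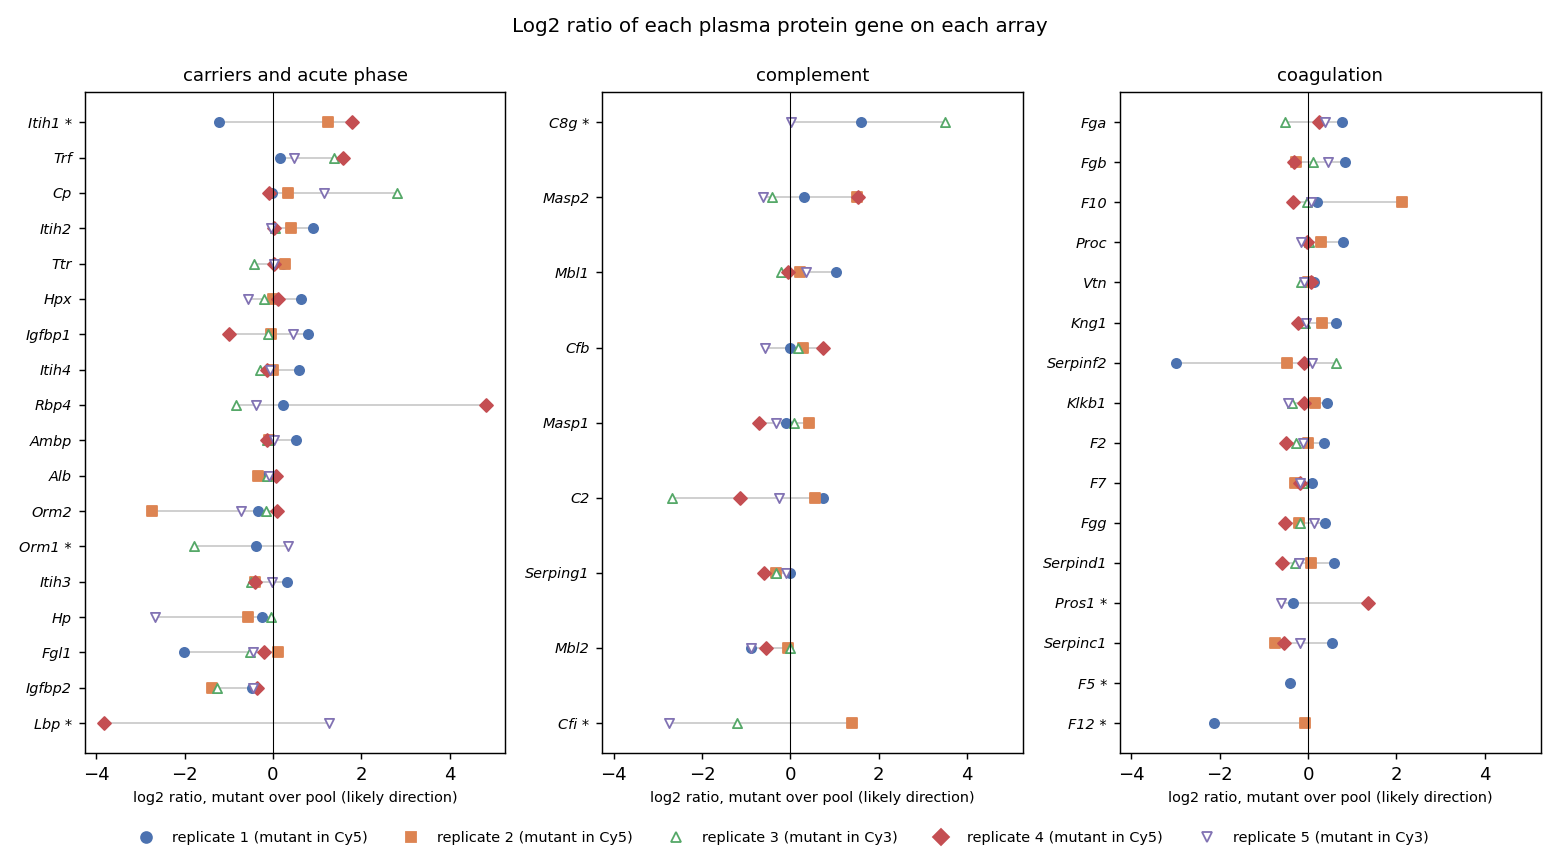
Log2 ratio (x axis, mutant over pool, likely direction) of the 43 members with a probe, 1 row per gene and 1 marker per array; open markers have the mutant in Cy3, and an asterisk marks a gene on too few arrays for the test. Replicate 1 is the rightmost marker for many coagulation genes, and single arrays stand far out for Rbp4 (4.83) and Serpinf2 (-3.0).

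Set beside each other array by array, the 3 classes did not keep an order. Medians of the carriers and acute phase genes were 0.22, -0.04, -0.16, -0.03 and -0.06 on replicates 1 to 5. For complement they were -0.01, 0.27, -0.21, -0.55 and -0.33, and for coagulation 0.43, 0.01, -0.13, -0.23 and -0.10. Carriers minus complement was 0.23, -0.31, 0.05, 0.52 and 0.28. Carriers minus coagulation was -0.21, -0.05, -0.03, 0.20 and 0.04. Complement minus coagulation was -0.44, 0.27, -0.07, -0.32 and -0.24. Each difference had either sign among the 5 arrays. The SD of a class median between arrays was 0.14 for carriers, 0.32 for complement and 0.26 for coagulation, larger in each class than the size of its median fitted ratio.

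**Figure D3:**
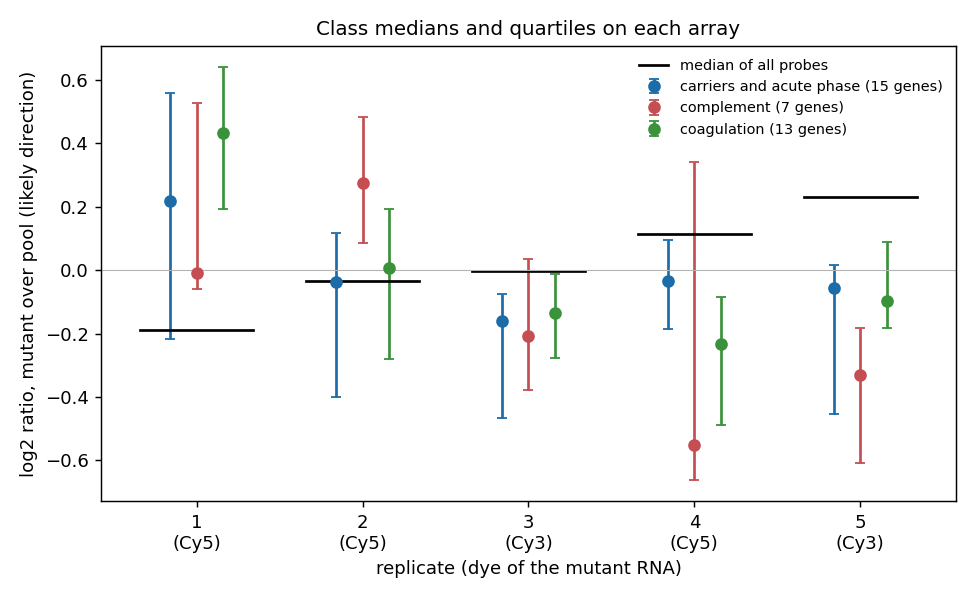
Median log2 ratio of the tested members of each class (points; bars span the quartiles over genes) on each array, with the median of all probes of that array as a black line; the x axis gives the replicate and the dye of the mutant RNA. On replicate 1 the class medians are -0.01 to 0.43 and lie above the array's median of -0.19; on replicates 4 and 5 they lie below it.

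Relative to all probes, the members were high on replicate 1 and low on replicates 3, 4 and 5. The median of all probes was -0.19, -0.04, -0.00, 0.11 and 0.23 on replicates 1 to 5. Relative to it, the 35 members had medians of 0.51, 0.04, -0.16, -0.25 and -0.33. On replicate 1, 28 of 35 members lay above the array's median, against 53.8% of all genes tested. On replicates 2 and 3 there were 18 of 32 and 8 of 34 above it, against 50.1% and 48.9%. On replicates 4 and 5 there were 6 of 34 and 6 of 35, against 47% and 47.4%.

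Coagulation genes followed this most evenly, with 12 of 13 above the array's median on replicate 1 and 1 of 13 on replicate 4. Of the 30 members on all 5 arrays, 21 were highest on replicate 1 after subtraction of array medians (9 of 12 carriers, 3 of 7 complement and 9 of 11 coagulation genes). Over all genes this share was 29.9%. As deposited, without that subtraction, it was 18 of 30, against 22.3%. No member was highest on replicate 5 after the subtraction, against 16.7%. Lowest values fell on replicate 4 for 12 members (27.9% of all genes) and on replicate 5 for 10 (20.4%). Fitted on Cy5 arrays only, which admits some members outside the 35, 22 members lay above 0 and 16 below, with 53.5% of all genes below. On only Cy3 arrays 9 lay above and 28 below, with 43.7% of all genes below. Hepatocyte genes outside the members (7 tested, 2 above 0, median fitted ratio -0.56) had medians relative to all probes of 0.06, -0.70, -0.77, -0.44 and -0.43 on replicates 1 to 5. After the subtraction, 5 of these 7 were highest on replicate 1. So were 5 of 6 other complement genes and 8 of 14 other carriers and acute phase genes measured on all 5 arrays. For other coagulation genes, regulators of plasma protein genes and secretory pathway genes the counts were 3 of 7, 3 of 7 and 9 of 25. As deposited, the counts of these 6 lists in that order were 4, 2, 7, 2, 1 and 8. Their part in the values of the members was not tested.

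The spread of the members between arrays was also described. With array medians subtracted, the median SD of a member was 0.55, against 0.95 over all genes tested. This was not particular to the members. The median SD was 0.55 for other complement genes, 0.60 for hepatocyte genes outside the members and 0.45 for regulators of plasma protein genes. It was 0.68 for other carriers, 0.72 for other coagulation genes and 0.87 for secretory pathway genes. Marker lists of other cell types had 0.39 (stellate) to 2.11 (adipose). Of 35 members, 27 were under the median of all genes, against 50% by construction. By class the medians were 0.58, 0.54 and 0.53 for carriers, complement and coagulation. Without replicate 1 the median SD of members was 0.36, against 0.95 over all genes. The largest SDs in each class were those of Rbp4 (2.59) and Hp (1.36), of C2 (1.46) and Masp2 (1.07), and of Serpinf2 (1.31) and F10 (1.04). The smallest were those of Alb (0.14, from values within 0.003 of the constant on 4 of 5 arrays) and Ttr (0.35), of Serping1 (0.32) and Mbl2 (0.48), and of Vtn (0.24) and F7 (0.27). On replicates 1 to 5, members over 2-fold from the array's median numbered 5 of 35, 4 of 32, 4 of 34, 5 of 34 and 2 of 35. The shares of all genes were 28.8%, 32.3%, 30%, 37.6% and 28.7%. Coagulation had none on replicates 3, 4 and 5.

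**Figure D4:**
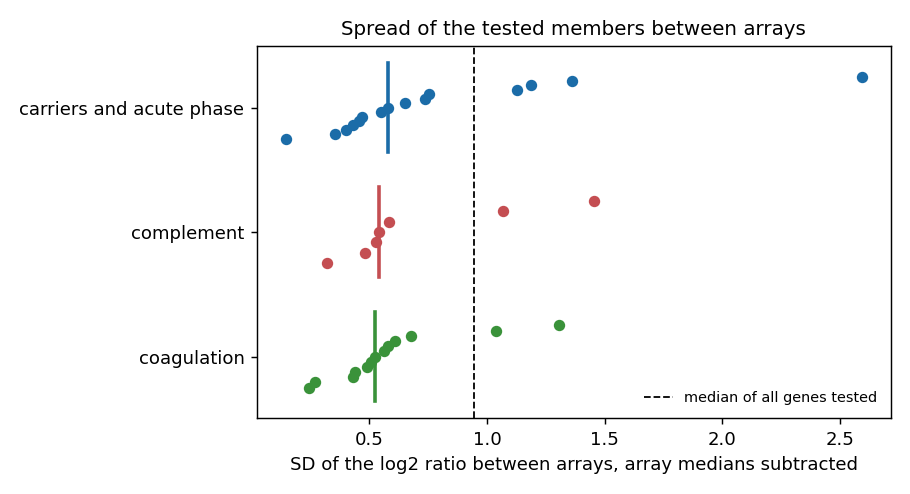
SD of the log2 ratio between arrays, with array medians subtracted (x axis), for each tested member by class (points, spread vertically for legibility), the class median (coloured bar) and the median of all genes tested (dashed line, 0.95). 27 of the 35 members lie left of the dashed line; Rbp4 is farthest right at 2.59.

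Other genes of the same systems, taken from lists, gave no call either. Other complement genes had 2 of 7 tested members above 0 (median -0.06), with C7, of the lytic complex, at 1.26 ± 0.96 and Hc, complement C5, at -0.25 ± 0.31. C7 had 4.37 on replicate 2 and 0.05 to 0.88 on the other 3 arrays that measured it. Other coagulation and fibrinolysis genes had 7 of 12 above 0 (median 0.09), with Vwf at -0.55 ± 0.43 and Anxa2 at 0.40 ± 0.34. Other plasma carriers and acute phase genes had 9 of 22 above 0 (median -0.15), with Itih5 at 1.72 ± 0.66 and Fetub at -1.14 ± 0.67. limma had 0 genes at an unadjusted p under 0.05 in these 3 lists, which are read against the background of 3.94%.

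Upstream, 3 of 7 regulators of plasma protein genes lay above 0 (median -0.01). Il6ra, the interleukin 6 receptor of the acute phase response, was below 0 on all 5 arrays, from -5.57 to -0.71 (-2.78 ± 0.92, limma unadjusted p 0.0260, adjusted p 0.998). The NF-kappa-B subunit gene Rela had 0.20 ± 0.26. Genes of the secretory pathway had 17 of 31 above 0 (median 0.07). The chaperone Hspa5 was below 0 on all 5 arrays at -0.70 ± 0.31, and Srpr, the signal recognition particle receptor, had 0.81 ± 0.37. limma had 1 gene at an unadjusted p under 0.05 among the regulators and 0 in the secretory list.

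Ratios against a liver pool give no level, so the labelled tissue could not be checked by its markers' levels. Of the hepatocyte genes outside the members, Tat, an amino acid enzyme, was below 0 on all 5 arrays (-0.78 ± 0.28, limma unadjusted p 0.0335), as was Ass1, of the urea cycle (-0.82 ± 0.34). Among Kupffer cell and macrophage markers 1 of 3 tested was above 0: Ctss, a lysosomal protease, had 2.41 ± 0.48 on 4 arrays (limma unadjusted p 0.0055, adjusted p 0.998), while Lyz2 had -0.39 ± 0.30. Ctss had 0.23, 1.78, 3.94 and 0.62 on replicates 1 to 4, with a dye coefficient of -1.53. Replicate 3 alone thus gave its Cy3 average. Adipose markers were above 0 for 3 of 3 tested (0.03 to 1.13, Adipoq and Car3 at 1.13 ± 0.79 and 0.40 ± 0.32), and their median relative to all probes ranged from -2.04 on replicate 2 to 2.01 on replicate 5. Adipoq had -2.58, -3.39, 6.12, 0.23 and 2.24 on replicates 1 to 5, with a dye coefficient of -3.05, and was highest on replicates 3 and 5, as was Cp. So were Sox9, of the bile duct list, at 1.79 and 1.59, and Col1a1, of the stellate list, at 1.75 and 2.93. Car3 and Cftr had dye coefficients of the other sign, 0.74 and 0.85. Of the adipose and of the bile duct markers, 2 of 3 had a limma unadjusted p under 0.05 for dye orientation. The Kupffer cell, endothelial and stellate lists had 1 of 3, 1 of 3 and 1 of 7. Blood and erythroid markers were above 0 for 4 of 4 (0.17 to 1.74, Car1 at 1.74 ± 0.86 and Car2 at 0.61 ± 0.39). Bile duct markers were above 0 for 3 of 3 (0.33 to 1.17, Cftr at 1.17 ± 0.59 and Sox9 at 0.64 ± 0.32). Stellate markers were above 0 for 4 of 7 (Col1a1 0.62 ± 0.37, Dcn -0.40 ± 0.27) and endothelial markers for 1 of 3 (Stab1 0.94 ± 0.73, Vwf as above). limma called 0 of these markers, and their part in the values of the members was not tested.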

How the data were processed

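Each deposited value was read as a log2 channel ratio. After subtraction of the array's constant, 30.0% of all values lay within 0.0015 of the log2 of a ratio of whole numbers up to 20. Scanner, background correction and normalization by the authors are not stated in the labels. Per the labels' protocols, 20 µg of total RNA per sample were reverse transcribed and labelled indirectly. Between 21.9% and 33.3% of the 20355 probes had no value on an array. Values over 12 in size (80 to 213 per array) are codes and were set to missing; 0 columns were left unused. The codes change sign with the dye orientation, so all arrays were read as running the same way. Over all probes, arrays correlated at Pearson r -0.02 to 0.11 within and -0.26 to -0.05 between dye orientations.

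Names came from the platform annotation, which gives 1 symbol for 14030 probes; probes of a gene were averaged. limma 3.58.1 (R 4.3.3) was run with an intercept and dye orientation as terms (lmFit, eBayes; 3 residual degrees of freedom on 5 arrays, 2 on 4; prior 2.45, prior SD 0.84), with Benjamini-Hochberg adjustment over all genes tested. Testing ratios against 0 treats the pool as 1 control sample and leaves out how wild-type animals vary. Whether replicates are separate animals rests on the labels. The number of arrays limits precision; spot intensities were not used here. The fit was tested on simulated data. Alternatives were single arrays left out, centring, scaling, codes, filters, dye handling, probe choice and values at whole-number ratios left out. Members and lists were chosen with earlier results of these data known.

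By rule, array values were given for a set of familiar members, the 3 highest and 3 lowest fitted ratios of each class, members with an unadjusted p under 0.05, with 1 sign, with more than 1 probe, or with the 2 smallest or largest SDs of a class. Of each other list the 2 genes with the lowest p are named. Others, such as Kng1, Klkb1, Proc and Hpx, were chosen after their values were seen.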

Additional observations from a re-analysis of the deposited data

Results flagged for a closer look

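Values of the 35 tested members and of the 3 class medians were searched for a single array far from the others, and chance flags about 1 in 20 such groups. It held for 3 of 38. Ambp had 0.53 on replicate 1, against -0.14 to 0.02 on the other arrays. Orm2 had -2.74 on replicate 2. The same probe had -2.15 on replicate 3, where averaging with 1.82 of the other probe gave -0.16. F10 had 2.13 on replicate 2, against at most 0.19 on the others. None of the class medians met this criterion.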

How the results depend on the processing

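In all 16 alternatives limma called 0 members. The number of members at an unadjusted p under 0.05, 1 in the reported fit (Cp), was 0 to 1 when single arrays were left out: it was 0 without replicates 2 and 4, and the single member was Rbp4 without replicate 1, Hp without replicate 3 and Igfbp2 with no dye term. It was 0 on Cy5 arrays only. It was 2 with array medians subtracted, with arrays also scaled, with values on all 5 arrays or with 1 probe per gene (Cp and Igfbp2), and 2 with the swapped arrays turned (Cp and Masp2). The class medians ranged from -0.24 to 0.11 (carriers), -0.22 to 0.16 (complement) and -0.11 to 0.10 (coagulation). The carrier median moved beyond its spread between arrays only on Cy3 arrays, to -0.24. With the swapped arrays turned, the fitted ratio is by construction the dye coefficient of the reported fit. Cp and Masp2 are thus the 2 members already given for dye orientation. That alternative also set the upper ends of the ranges for complement and coagulation. In it 22 of 35 members lay above 0 and 16 changed sign. In the other alternatives at most 8 changed sign. Members above and below 0 numbered 22 and 16 on Cy5 arrays only and 9 and 28 on Cy3 arrays only, against 14 and 21 reported. The median SD of members was 0.36 to 0.60. Apart from the turned arrays, the cause of these changes was not tested. No paired analysis was possible because there is 1 group. Of 205 member values, 55 (26.8%) were whole-number ratios, against 30.0% of all values. Such a value lies, after subtraction of the array's constant, within 0.0015 of the log2 of a ratio of whole numbers up to 20. Without them 23 of the 35 members could be tested, and Hp, Trf, Rbp4, Orm2 and Serpinf2 were among those lost. The fitted ratio of F10 was then -0.02, against 0.34 reported. Spot brightness was not used here, so the source of such values was not tested and no limit by signal can be given.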
